A study of Mus musculus with 6 samples.

Results

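The 49 genes described here encode proteins of synaptic vesicles and of the presynaptic machinery that docks, primes, fuses and recovers them. They were taken by symbol from a fixed list, which was chosen with earlier results of these data known. All 49 had at least 1 tag among the 24030 features of the table. Their RNA was measured by MACE (massive analysis of cDNA ends), in which each transcript gives 1 tag near its 3′ end whatever its length, so that levels can be compared between genes. The groups were homozygous Atxn2 knockout mice (KO, Atxn2-/-) and wild-type mice (WT, Atxn2+/+) of strain C57BL/6 at 6 months of age, in cerebellum, hippocampus and liver, with 1 library of 3 pooled animals for each genotype and tissue, or 6 libraries. Atxn2 encodes the RNA-binding protein ataxin-2, and the labels do not say which part of the gene was deleted. The protocol text names midbrain and ages in weeks where the sample labels name hippocampus and months, and the sample labels were followed.

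A presynaptic terminal stores transmitter in vesicles that vesicular transporters fill. Vesicles are held by synapsins, primed at the active zone by Unc13, Rim and ELKS proteins, and fused by the SNARE proteins of the vesicle (Vamp) and the plasma membrane (syntaxin and Snap25) when calcium binds a synaptotagmin. Complexins hold the SNARE complex ready, Nsf and its Snap adaptors take it apart, and dynamin, amphiphysin and synaptojanin bring the membrane back. Which paralogue a synapse uses differs between brain regions, and most of these genes are held to be silent outside neurons and endocrine cells.

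Promoter windows from RefSeq on build GRCm38.p6, from 250 bases before to 50 bases after the transcription start, were given for 40 of the 49 genes. They were searched on both strands for the cyclic AMP response element TGACGTCA and for the left and right parts of the RE1 element, CAGCACC and GGACAG, which the neuronal repressor Rest binds when they are joined. A gene was counted where any of its windows held the letters. The response element stood in 3 of the 40 members and in 2.03% of all genes with a window. The left RE1 part stood in 5 members (Syn1, Sv2c, Napa, Unc13a and Rph3a) against 8.14% of all genes, and the right part in 12 members against 24.7%. A joined form, AGCACC and GGACAG with 2 free bases between, was in 0 members and in 0.0592% of all genes. Only exact letters were counted, so a joined site with any mismatch would be missed. The 3 members with the response element are shown because they differ in their liver level, with Napa at 49.5% of its brain level, Syn1 at 4.76% and Sh3gl2 at 3.45%. Capitals mark the matches on either strand, which are descriptions of letters and not of binding. Syn1 lies at chrX:20920869-20921168 on the minus strand, Napa at chr7:16098330-16098629 on the plus strand and Sh3gl2 at chr4:85205206-85205505 on the plus strand.
Syn1: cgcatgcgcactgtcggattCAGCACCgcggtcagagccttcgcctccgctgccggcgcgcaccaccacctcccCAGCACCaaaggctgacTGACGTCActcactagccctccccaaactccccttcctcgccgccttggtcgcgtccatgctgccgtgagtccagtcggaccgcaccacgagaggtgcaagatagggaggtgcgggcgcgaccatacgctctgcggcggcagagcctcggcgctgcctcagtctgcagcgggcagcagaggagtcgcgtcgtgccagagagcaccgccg
Napa: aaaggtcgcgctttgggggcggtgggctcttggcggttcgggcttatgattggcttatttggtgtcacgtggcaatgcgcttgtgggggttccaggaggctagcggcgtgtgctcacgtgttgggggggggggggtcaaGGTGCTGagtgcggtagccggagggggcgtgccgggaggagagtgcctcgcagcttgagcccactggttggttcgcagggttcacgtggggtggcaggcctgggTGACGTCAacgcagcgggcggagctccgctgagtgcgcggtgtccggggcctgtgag
Sh3gl2: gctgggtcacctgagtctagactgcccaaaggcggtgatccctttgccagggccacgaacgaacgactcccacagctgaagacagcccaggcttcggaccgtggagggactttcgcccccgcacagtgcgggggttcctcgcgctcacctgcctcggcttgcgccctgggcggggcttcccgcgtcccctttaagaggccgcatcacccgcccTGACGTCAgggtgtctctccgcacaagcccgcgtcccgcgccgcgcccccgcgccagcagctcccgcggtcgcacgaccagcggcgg

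Gene tags numbered 1774523 to 2727523 per library. Atxn2 had 0, 1 and 2 tags in KO cerebellum, hippocampus and liver, against 167, 194 and 115 in WT. Xist, the RNA of the inactive X chromosome, had 0 tags in every KO library and 34, 49 and 87 in WT cerebellum, hippocampus and liver, while Y-linked transcripts were present in both genotypes, so that the sex of the animals and genotype cannot be told apart. This holds for all members, of which Syn1 and Syp lie on the X chromosome. Markers of hippocampal excitatory neurons summed to 2090 and 2640 CPM in KO and WT hippocampus and to 67.6 and 77.0 in cerebellum, and those of midbrain and monoamine neurons to 6.38 and 7.60 CPM in hippocampus, with 4 and 2 of 8 at 0. CPM here is tags per 1000000 of the library size after TMM scaling. Since tissues were ground whole, fewer cells of a type and less RNA per cell cannot be told apart.

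The 49 genes took 1.76% and 1.81% of gene tags in KO and WT cerebellum, 2.27% and 2.29% in KO and WT hippocampus, and 0.0429% and 0.0495% in KO and WT liver. The median gene stood at 125 and 137 CPM in KO and WT cerebellum, at 138 and 142 in KO and WT hippocampus, and at 6.29 and 6.97 in KO and WT liver. Snap25, a plasma membrane SNARE, Slc17a7, the glutamate transporter VGLUT1, Rab3a, the vesicle GTPase, Vamp2, the vesicle SNARE, and Syp, the membrane protein synaptophysin, were the 5 highest over the brain libraries. This ranking leaves out rows shared between named genes. Cplx2 averaged 758 CPM in brain without such rows, which held 49.5% of the tags naming it, so its rank is not settled. Together the 5 highest genes of each brain library held 40.5% to 43.1% of its presynaptic tags. At the other end, Sv2c and Rims3 had 4 and 3 tags over all 6 libraries. For Sv2c 29 further tags were antisense.

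**Figure D1:**
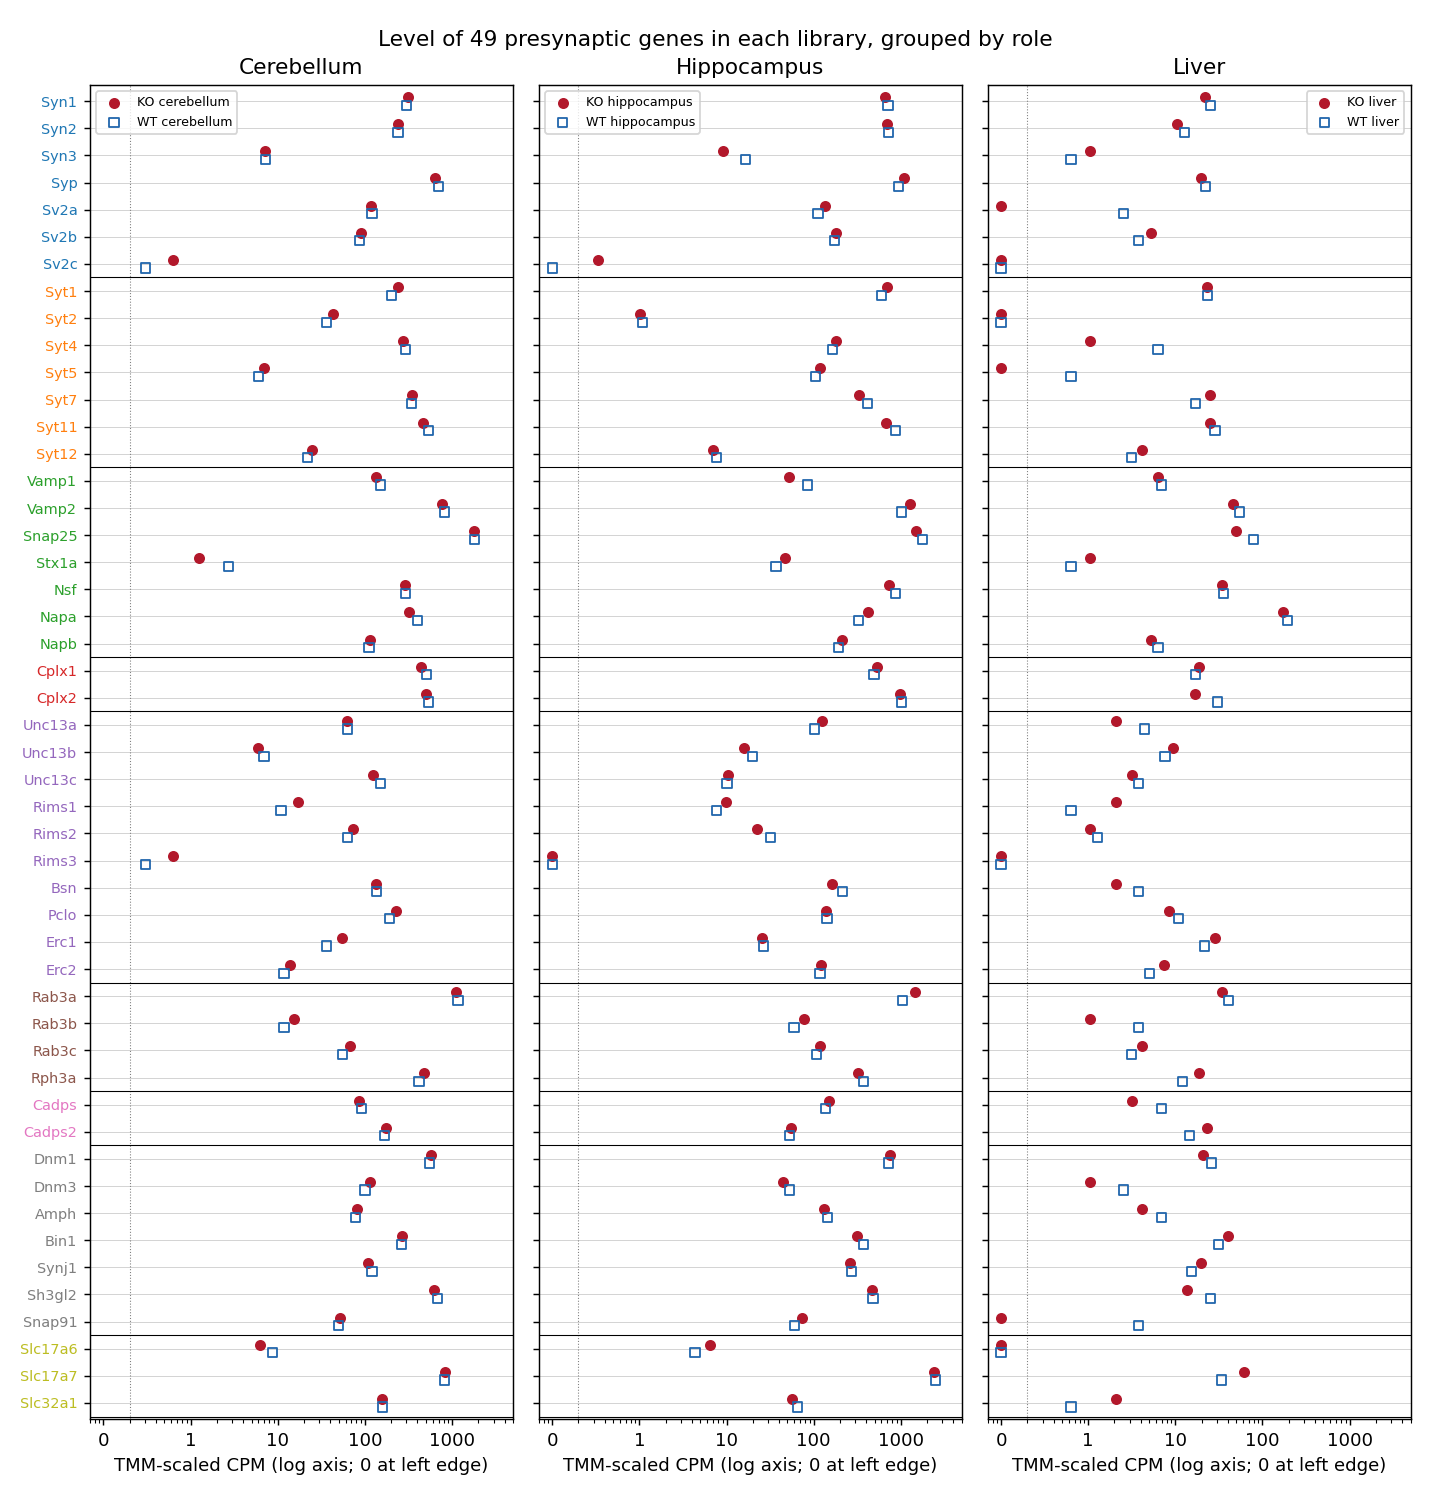
TMM-scaled CPM (log axis) of the 49 genes in each library, with KO as filled circles and WT as open squares, in 3 panels for cerebellum, hippocampus and liver. Genes are grouped by role, and the median gene lies between 125 and 142 CPM in the brain libraries and between 6.29 and 6.97 in liver.

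Between the brain regions, presynaptic genes differed often and in both directions. Of 47 tested members, 11 were higher in cerebellum, where 13.5% of all 12882 tested genes were called higher, and 21 were lower in cerebellum than in hippocampus, against 15.7% of all genes (edgeR quasi-likelihood test, Benjamini-Hochberg adjusted p under 0.05). Their median log2 difference, cerebellum over hippocampus, was -0.41, and that of all genes was -0.00. With library totals in place of TMM the median of all genes moved by 0.12, and the calls were 12 and 18 for members and 2159 and 1666 for all genes, where TMM gave 1733 and 2027. The KO and WT pool of a region stand in as its replicates. Since the fit has a genotype term, the p-values measure how the KO over WT ratio varies among the 3 tissues, liver included. They do not measure the spread between animals. When each library was left out in turn, 8 of the 11 and 10 of the 21 calls held in all 6 fits, and those that did not are named below. The count of lower members was 13 without either cerebellum library and 26 without WT liver.

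**Figure D2:**
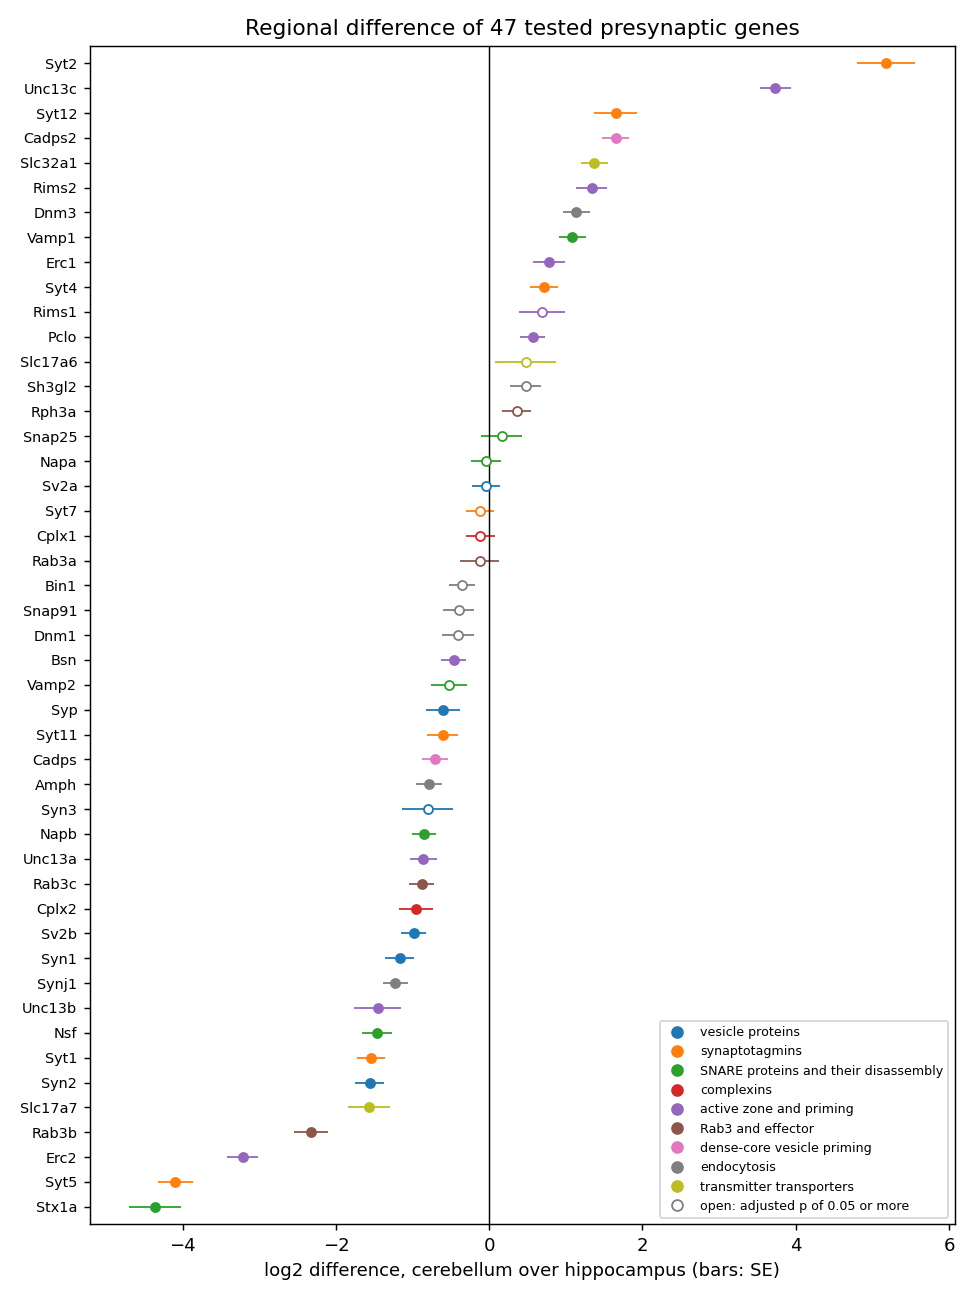
Log2 difference of 47 tested genes, cerebellum over hippocampus, with bars of 1 SE and colours for roles. SE is the absolute log2 difference divided by the square root of the F statistic, and counting error can exceed it for genes with few tags. Filled circles have an adjusted p under 0.05; Syt2 at 5.18 and Unc13c at 3.73 lie far to the right, and Stx1a at -4.35 and Syt5 at -4.10 far to the left.

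The calcium sensors showed the widest split. Syt2, a fast sensor of hindbrain synapses, had 42.9 and 36.4 CPM in KO and WT cerebellum, against 1.01 and 1.09 in KO and WT hippocampus (log2 5.18, SE 0.38, adjusted p = 2.54e-09). The hippocampal values rest on 3 tags in each library, and the ratio of summed tags after scaling was 37.9, with an exact 95% counting interval of 17.2 to 104. SE here and below is the absolute log2 difference divided by the square root of the F statistic of the test. For Syt2 the counting interval is wider than this SE implies. Syt2 was therefore close to absent from one region and well counted in the other. Syt5, a synaptotagmin of dense-core vesicles, ran the other way, with 6.89 and 6.06 CPM in KO and WT cerebellum and 119 and 104 in KO and WT hippocampus (log2 -4.10, SE 0.23, adjusted p = 2.03e-11). Syt1, the main fast sensor of the forebrain, stood at 240.1 and 204 CPM in KO and WT cerebellum and 688 and 606 in KO and WT hippocampus (log2 -1.54, SE 0.18, adjusted p = 1.29e-06). Both were higher in each hippocampal library than in either cerebellar one. Syt12, which binds no calcium, had 24.4 and 21.8 CPM in KO and WT cerebellum and 7.05 and 7.60 in KO and WT hippocampus (log2 1.65, SE 0.28, adjusted p = 0.000106), and 22.4% of its tags were antisense to it. Syt4 was higher in cerebellum (log2 0.72) and Syt11, another family member that binds no calcium, lower (log2 -0.60). Syt4 lost its call without KO cerebellum, WT cerebellum or WT hippocampus (adjusted p = 0.116, 0.135 and 0.1). Syt11 lost its call without any 1 of the 4 brain libraries (adjusted p = 0.0596 to 0.467). Syt7, the sensor of slow release, had a log2 difference of -0.12 (adjusted p = 0.679).

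The priming and active zone genes divided by paralogue. Unc13c, the Munc13 form known from cerebellum, had 125 and 151 CPM in KO and WT cerebellum, against 10.4 and 10.1 in KO and WT hippocampus (log2 3.73, SE 0.21, adjusted p = 2.03e-11). Its paralogues were both lower in cerebellum, Unc13a at a log2 of -0.86 and Unc13b, the form of some hippocampal synapses, at -1.46 (adjusted p = 0.0006 and 0.000805). The 3 Munc13 genes thus stood on opposite sides, although the call of Unc13a was lost without KO cerebellum (-0.74, adjusted p = 0.11). The ELKS pair divided too. Erc2, which binds Rim and bassoon, had 13.8 and 11.8 CPM in KO and WT cerebellum, against 120.2 and 118 in KO and WT hippocampus (log2 -3.22, SE 0.20, adjusted p = 9.86e-11), while Erc1 was higher in cerebellum (0.79, adjusted p = 0.00619). Erc1 lost its call without KO cerebellum (0.55, adjusted p = 0.364) or KO hippocampus (0.50, adjusted p = 0.29). Rims2, a Rim scaffold that ties calcium channels to vesicles, had 72.6 and 63.3 CPM in KO and WT cerebellum and 22.2 and 31.9 in KO and WT hippocampus (log2 1.34, SE 0.20, adjusted p = 2.75e-05). Its relative Rims1 did not pass (0.69, adjusted p = 0.0994). The giant scaffolds piccolo and bassoon had log2 differences of 0.57 for Pclo and -0.46 for Bsn. Pclo lost its call without KO cerebellum, WT cerebellum or KO hippocampus (adjusted p = 0.457, 0.0845 and 0.192), and Bsn without any 1 of the 4 brain libraries (adjusted p = 0.06 to 0.645).

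Among SNARE genes, Stx1a, the plasma membrane syntaxin, had 4 and 9 tags in KO and WT cerebellum, against 141 and 102 in KO and WT hippocampus, or 47.3 and 36.9 CPM there (log2 -4.35, SE 0.34, adjusted p = 3.43e-09). The summed tags after scaling were 21.1-fold lower in cerebellum (exact 95% counting interval 12.1 to 40.3), and this interval too is wider than the SE implies. With all libraries this was the lowest difference of the 47 tested genes, but it was -3.72 without KO cerebellum, -5.19 without WT cerebellum, -3.82 without KO hippocampus and -5.01 without WT hippocampus. Without either of these KO libraries Syt5 was lower, at -4.10 without KO cerebellum and -4.05 without KO hippocampus. Vamp1 was higher in cerebellum, at 136 and 150.0 CPM in KO and WT, against 52.0 and 85.4 in KO and WT hippocampus (log2 1.09, SE 0.18, adjusted p = 6.44e-05). Vamp2 and Snap25, far more abundant, did not pass (log2 -0.52 and 0.16, adjusted p = 0.104 and 0.692). Vamp2 had 757 and 827 CPM in KO and WT cerebellum and 1263 and 1017 in KO and WT hippocampus, and Snap25 had 1768 and 1826 CPM in KO and WT cerebellum and 1476 and 1759 in KO and WT hippocampus. Of the disassembly genes, the ATPase Nsf and the adaptor Napb were lower in cerebellum (log2 -1.46 and -0.85), and the general adaptor Napa was close to 0 (log2 -0.04, adjusted p = 0.902). Napb lost its call without KO cerebellum (-0.82, adjusted p = 0.0588). Of the complexins, Cplx2 was lower in cerebellum (-0.95) and Cplx1 did not pass (-0.12). Cplx2 lost its call without KO or WT cerebellum (adjusted p = 0.153 and 0.262), and 49.5% of the tags naming it lay in rows shared with Rab3c or Emp2, which were left apart.

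Of 6 tested genes of vesicle membrane and cytosolic vesicle proteins, 0 were higher and 4 lower in cerebellum, where 13.5% of all genes were higher and 15.7% lower. Of the 4, Syn2 and Sv2b held in every fit without a library. Syn2, a synapsin that tethers vesicles to one another, had 243 and 239 CPM in KO and WT cerebellum, against 697 and 726 in KO and WT hippocampus (log2 -1.56, SE 0.19, adjusted p = 1.58e-06). Syn1 differed by -1.17 and the transporter-like vesicle protein Sv2b by -0.99, while Syn3 and Sv2a did not pass (log2 -0.80 and -0.04). Syp stood at 631 and 698 CPM in KO and WT cerebellum and 1079.7 and 937 in KO and WT hippocampus (log2 -0.60, SE 0.22, adjusted p = 0.0468). Syn1 lost its call without WT cerebellum (-1.08, adjusted p = 0.0615), and Syp without KO cerebellum, WT cerebellum or KO hippocampus (adjusted p = 0.616, 0.377 and 0.351). Of the Rab3 GTPases, which mark vesicles ready for release, Rab3b had 15.3 and 11.8 CPM in KO and WT cerebellum, against 76.5 and 59.4 in KO and WT hippocampus (log2 -2.32, SE 0.22, adjusted p = 5.8e-08). Rab3c was also lower in cerebellum (-0.88), though not without WT cerebellum (-0.82, adjusted p = 0.0563), and 88.7% of the tags naming it lay in shared rows. Rab3a and its effector rabphilin (Rph3a) did not pass (log2 -0.13 and 0.36).

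The transmitter transporters differed by type. Slc17a7 had 829 and 824 CPM in KO and WT cerebellum, against 2397 and 2501 in KO and WT hippocampus (log2 -1.57, SE 0.28, adjusted p = 0.000154). Without KO cerebellum the difference was -1.41 and missed the threshold (adjusted p = 0.112). Slc32a1, which loads GABA and glycine, had 155 and 158 CPM in KO and WT cerebellum, against 56.4 and 64.8 in KO and WT hippocampus (log2 1.37, SE 0.17, adjusted p = 2.37e-06). The glutamate transporter Slc17a6 (VGLUT2) was low in both regions, between 4.34 and 8.79 CPM. Cadps2, a priming factor of dense-core vesicles, had 172 and 168 CPM in KO and WT cerebellum, against 55.1 and 53.2 in KO and WT hippocampus (log2 1.65, SE 0.17, adjusted p = 2.39e-07), and its relative Cadps ran the other way (-0.70). Cadps lost its call without KO cerebellum, WT cerebellum or KO hippocampus (adjusted p = 0.187, 0.0805 and 0.131).

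In endocytosis, the dynamin Dnm3 was higher in cerebellum, at 113 and 100.0 CPM in KO and WT cerebellum against 44.3 and 52.9 in KO and WT hippocampus (log2 1.14, SE 0.18, adjusted p = 3.75e-05), and the lipid phosphatase gene Synj1 was lower, at 107 and 120.3 CPM in KO and WT cerebellum against 259.9 and 273 in KO and WT hippocampus (log2 -1.23, SE 0.16, adjusted p = 5.5e-06). Amph, the neuronal amphiphysin, was lower too (-0.78), though not without WT cerebellum (-0.65, adjusted p = 0.157). The main neuronal dynamin Dnm1, the widely expressed amphiphysin Bin1, the endophilin Sh3gl2 and the clathrin adaptor Snap91 did not pass (log2 -0.41, -0.36, 0.48 and -0.40).

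Of the other presynaptic genes, 56 listed by symbol, 8 of 49 tested were higher and 17 lower in cerebellum, against 13.5% and 15.7% of all genes, with a median log2 of -0.22. The highest were Syt9 (log2 2.96, adjusted p = 1.35e-06) and the calcium channel subunit gene Cacnb4 (1.57, adjusted p = 2.86e-07). The lowest were Doc2a, a calcium-binding release protein with 1 and 0 tags in KO and WT cerebellum against 61 and 56 in KO and WT hippocampus (adjusted p = 6.68e-08), and the Rim-binding protein gene Rimbp2 with 1 and 0 tags in KO and WT cerebellum against 12 and 11 in KO and WT hippocampus (adjusted p = 0.00167).

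Brain exceeded liver for nearly the whole set. Of 47 tested members 45 were higher in brain, where 36.4% of all tested genes were called higher, and 0 were lower (edgeR quasi-likelihood test). The median log2 difference was 4.53, or 4.34 with Syt2 and Slc17a6, which had 0 tags in both liver libraries, at a floor of 3 tags per library, and the median of all genes was 0.16. Against that floor the arithmetic mean of the brain libraries was at least 8.06-fold higher for Syt2 and at least 2.55-fold higher for Slc17a6. The test instead averages the 2 regions on the log scale, so these folds and the 4.34 mix 2 measures. Syt2 averaged 39.6 CPM in cerebellum and 1.05 in hippocampus, so its fold rests on cerebellum. The 45 calls held in each of the 6 fits without a library. Unc13b (log2 0.38, adjusted p = 0.351) and Erc1 (0.47, adjusted p = 0.0768) were the 2 that did not pass. With library totals the median of all genes moved by 1.27, the calls were 47 and 0 for members, and for all genes 8596 higher and 2157 lower, where TMM gave 4689 and 4362.

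With shared rows left apart, the highest members in liver were Napa, Snap25, Vamp2, Slc17a7 and Rab3a. Napa, whose product serves membrane fusion in all cells, had 171 and 193 CPM in KO and WT liver, against 323 and 402 in KO and WT cerebellum and 417 and 327 in KO and WT hippocampus, or a log2 difference between brain and liver of 1.01 (SE 0.19, adjusted p = 7.04e-05). Erc1 had 28.3 and 21.6 CPM in KO and WT liver, against 54.8 and 36.4 in KO and WT cerebellum and 25.9 and 26.4 in KO and WT hippocampus, so that KO liver lay within the range of the brain libraries and WT liver below it. Unc13b had 9.44 and 7.61 CPM in KO and WT liver, within the range of its brain libraries. Snap25 was at 50.3 and 78.6 CPM in KO and WT liver, Vamp2 at 46.1 and 54.5 and Rab3a at 34.6 and 40.6. These 3 stood in liver at 3.78%, 5.21% and 3.15% of their brain level. The 13 neuron markers stood in liver at 1.44% to 5.39% of their brain level (median 2.99%), and the 47 members with at least 1 CPM in brain at a median of 3.88%. Of these, 15 lay above the highest neuron marker and 32 within or below the markers' range. Pcp2 and Gabra6, made by Purkinje and cerebellar granule cells, also had 43 and 63, and 9 and 24, tags in KO and WT liver. The part of such tags in the liver values of the members was not tested. Of the genes that divided the brain regions, Syt2 was at 0 and 0 CPM in KO and WT liver, Unc13c at 3.15 and 3.80, Syt12 at 4.19 and 3.17, Rims2 at 1.05 and 1.27, Cadps2 at 23.1 and 14.6 and Slc32a1 at 2.10 and 0.634. Of those higher in hippocampus, Stx1a was at 1.05 and 0.634 CPM in KO and WT liver, Syt5 at 0 and 0.634, Erc2 at 7.34 and 5.07, Rab3b at 1.05 and 3.80, Slc17a7 at 60.8 and 34.2 and Syn2 at 10.5 and 12.7. Slc17a7, Cadps2 and Syn2 stood above 10 CPM in both liver libraries and the other 9 below it.

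**Figure D3:**
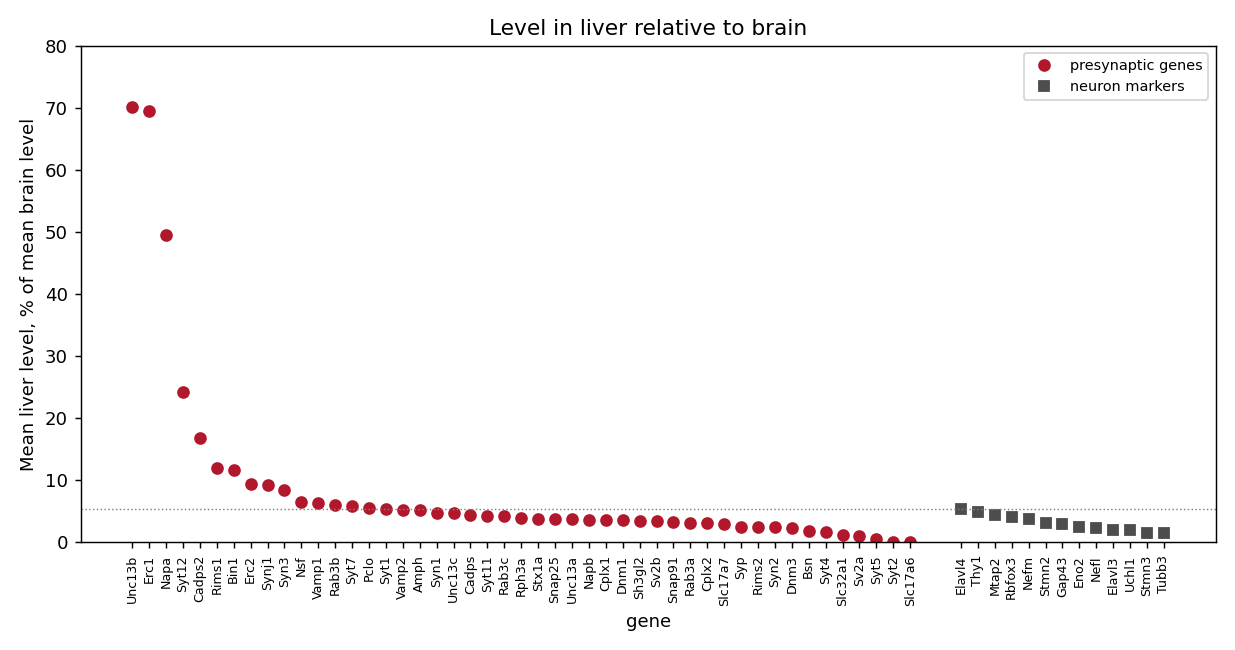
Mean level in liver as a percentage of the mean level in brain, for 47 presynaptic genes (circles) and 13 neuron markers (squares). Unc13b, Erc1 and Napa lie at 70.1%, 69.5% and 49.5%, and the dotted line marks the highest neuron marker at 5.39%.

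No member passed a test of genotype across tissues. Across the 3 tissues 0 of 47 tested members were higher in KO, where 0.0233% of all genes were called higher, and 0 were lower, against 0.179% of all genes (edgeR quasi-likelihood test). The members' median log2 ratio, KO over WT, was -0.01, 1 had an unadjusted p under 0.05, against 4.92% of all genes, and DESeq2 also called 0 members. Over the 4 brain libraries 0 of 47 were higher, against 0.141% of all genes, and 0 lower, against 0.741%. Here 2 members had an unadjusted p under 0.05, against 7.20% of all genes. They were Vamp1 (log2 -0.39, SE 0.15, adjusted p = 0.43) and Syt11 (log2 -0.29, SE 0.12, adjusted p = 0.532), and DESeq2 called 0 members. With 2 regions and 1 pool per genotype in each, these p-values measure the spread between tissues and pools, not between animals. Among the other presynaptic genes, 0 of 49 passed across the 3 tissues.

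Inside each tissue a single KO library faces a single WT library, so no test was made. A member was counted as higher or lower where one library exceeded the other by at least 25%, where it averaged at least 10 CPM and where it had a 95% counting interval (Clopper-Pearson) without equality, and these intervals cover counting error only. In cerebellum 2 of 42 members measured at that level were higher in KO, against 4.05% of all genes, and 0 were lower, against 5.07%. In hippocampus 3 of 43 were higher, against 9.08%, and 5 lower, against 7.78%. The members' median log2 ratio was 0.01 in cerebellum and -0.03 in hippocampus, and that of all genes was -0.01 and 0.01. With DESeq2 size factors the counts were 2 higher and 1 lower in cerebellum, and 1 higher and 6 lower in hippocampus. No member met the rule at 2-fold in a brain tissue.

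**Figure D4:**
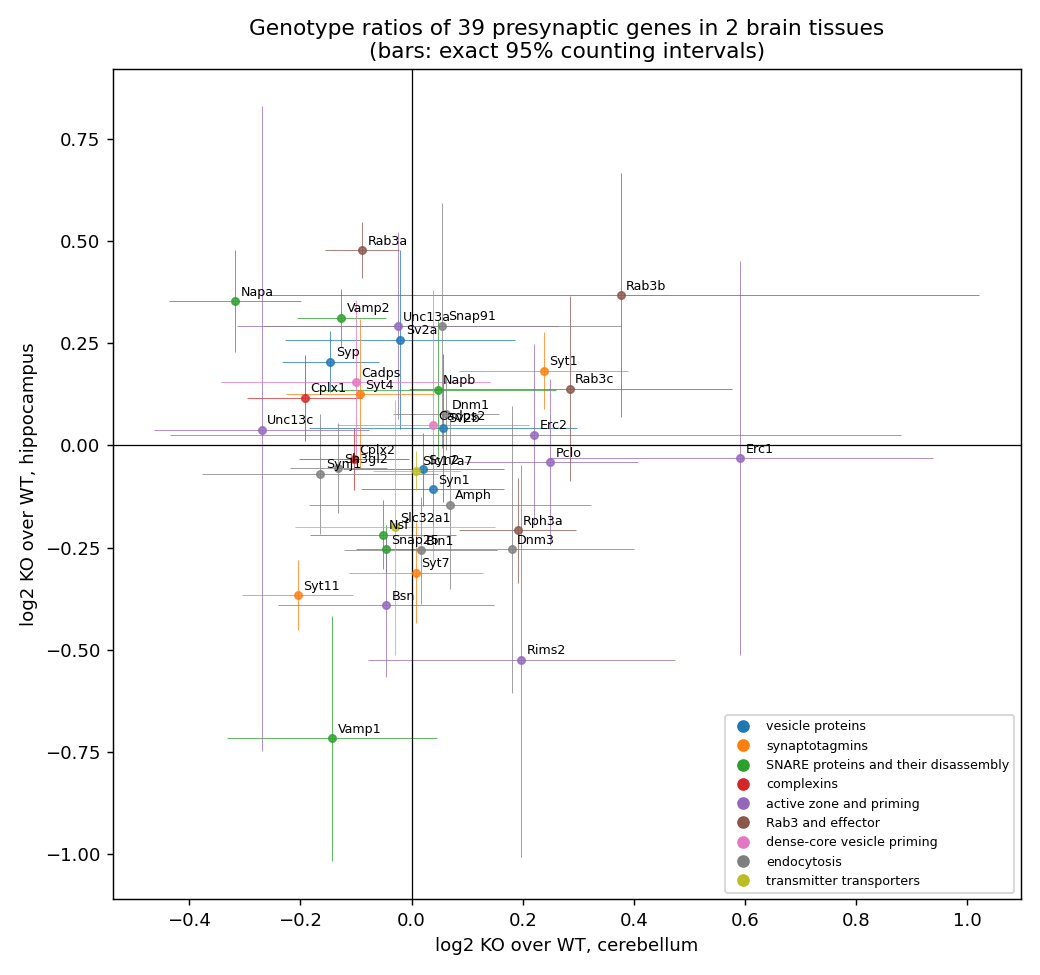
Log2 ratio of KO over WT in cerebellum (x axis) and hippocampus (y axis) for the 39 genes with at least 10 CPM in both, with exact 95% counting intervals as bars and colours for roles. Erc1 lies to the right, Rab3a at the top and Vamp1 at the bottom.

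In cerebellum the genes above the limit were Rims1 and Erc1, 2 of 8 measured active zone and priming genes. The others of that group had log2 ratios of 0.25 (Pclo), 0.22 (Erc2), 0.20 (Rims2), -0.02 (Unc13a), -0.05 (Bsn) and -0.27 (Unc13c). Rims1 had 55 tags in KO and 36 in WT, or 17.2 and 10.9 CPM (log2 0.66, interval 0.03 to 1.31), and Erc1 had 175 and 120 tags, or 54.8 and 36.4 CPM (log2 0.59, interval 0.25 to 0.94). In hippocampus neither had an interval off equality, with Rims1 below 10 CPM there and Erc1 at -0.03. Rab3b, at 15.3 and 11.8 CPM in KO and WT cerebellum, and Rab3c, at 67.9 and 55.8, came next (log2 0.38, interval -0.26 to 1.02 and 0.28, interval -0.01 to 0.58), and both intervals included equality. At the low end Napa had 323 and 402 CPM in KO and WT cerebellum (log2 -0.32, interval -0.44 to -0.20), just short of the 25% limit, and it is the 1 gene counted as lower with DESeq2 size factors. Unc13c had 125 and 151 CPM (log2 -0.27, interval -0.46 to -0.08) and Cplx1 443 and 506 CPM (log2 -0.19, interval -0.30 to -0.09) in KO and WT cerebellum. In hippocampus Cplx1 had 535 and 493 CPM in KO and WT, Rab3c 119 and 108 and Rims1 9.74 and 7.60. The Rab3c values leave out the 88.7% of the tags naming it that lay in shared rows. The shared feature Cplx2/Rab3c had log2 ratios of 0.29 in cerebellum and -0.23 in hippocampus. For Cplx2/Emp2/Rab3c they were 0.22 and -0.76, and the gene behind these tags cannot be told. Purkinje cell markers summed to 6513 and 7297 CPM in KO and WT cerebellum, with 7 of 7 measured markers lower in KO, a median log2 of -0.15 and 0 of 8 at 0. Granule cell markers summed to 2209.5 and 2147 CPM in KO and WT cerebellum, with 7 of 8 higher in KO and a median log2 of 0.08. Of 13 neuron markers 8 were higher and 5 lower in KO cerebellum, and of 5 measured GABA neuron markers all 5 were lower. Oligodendrocyte markers summed to 3856 and 5055 CPM there, of which Mbp had 2369.8 and 3564, with 3 of 8 lower and 5 higher in KO and a median log2 of 0.03. Their part in these ratios was not tested.

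In hippocampus the members counted as higher in KO were Rab3a, Rab3b and Napa. Rab3a had 1453 and 1044 CPM in KO and WT hippocampus, against 1102 and 1172 in KO and WT cerebellum, with a log2 ratio of 0.48, interval 0.41 to 0.55 in hippocampus. Rab3b had 76.5 and 59.4 CPM (log2 0.37, interval 0.07 to 0.66) and Napa 417 and 327 CPM (log2 0.35, interval 0.23 to 0.48) in KO and WT hippocampus. Only Rab3a was still counted with DESeq2 size factors, and none of the 3 was at least 1.5-fold higher. Stx1a, at 47.3 and 36.9 CPM, had an interval that included equality (log2 0.36, interval -0.02 to 0.74).

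The members counted as lower in KO hippocampus were Syn3, Vamp1, Rims2, Bsn and Syt11. Syn3, the scarcest synapsin, had 27 tags in KO and 46 in WT, or 9.06 and 16.7 CPM (log2 -0.88, interval -1.62 to -0.16), and 7.20 and 7.27 CPM in KO and WT cerebellum. Vamp1 had 52.0 and 85.4 CPM in KO and WT hippocampus and 136 and 150.0 in KO and WT cerebellum (log2 -0.72, interval -1.02 to -0.42 in hippocampus and -0.14, interval -0.33 to 0.05 in cerebellum). These 2 were the members at least 1.5-fold lower. Rims2 had 22.2 and 31.9 CPM (log2 -0.52, interval -1.01 to -0.05), Bsn 162 and 213 CPM (log2 -0.39, interval -0.57 to -0.21; 133 and 137 CPM in KO and WT cerebellum) and Syt11 670.5 and 864 CPM (log2 -0.37, interval -0.45 to -0.28) in KO and WT hippocampus. Vamp1 was thus counted as lower in KO hippocampus, while its paralogue Vamp2 stood at 0.31 with its interval above equality.

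The KO and WT hippocampal libraries also differed in other ways. Hippocampal excitatory neuron markers summed to 2090 and 2640 CPM in KO and WT, of which Camk2a had 1273.5 and 1833. Of 7 measured markers 5 were lower and 2 higher, with a median log2 of -0.07 and 0 of 9 at 0. Astrocyte markers were lower in KO in 7 of 8 cases, oligodendrocyte markers in 7 of 8 and microglia markers in 6 of 7, with median log2 ratios of -0.22, -0.05 and -0.16. Of 13 neuron markers 7 were higher and 6 lower in KO, with sums of 5557.5 and 5300.7 CPM in KO and WT and a median log2 of 0.09. Endothelium and blood markers were higher in KO in 3 of 3 measured cases, with a median log2 of 0.84. Hepatocyte markers summed to 375 and 1481 CPM, with 9 of 9 measured lower, and the ribosomal RNA feature Rn28s1/Rn45s had 1744 and 602 tags. Genes whose last 250 bases were richest in G and C, at 50.8% or more, had a median log2 ratio of 0.11 in hippocampus, and the 12 members among them one of 0.10. Rab3a (52.0%) was among these, as were Syp, Vamp2, Cplx1 and Rph3a, and Rab3b, Napa and the 5 lower members were not. Of the other members among them, Bin1, Syn1 and Slc17a7 had intervals below equality in hippocampus (log2 -0.26, -0.11 and -0.06). Unc13a had an interval above it (0.29), and those of Stx1a, Cplx2 and Dnm1 included it. Genes with the shortest transcripts, 371 to 1800 bases, had a median of 0.09, and the 2 members among them one of 0.33. In the next length bin, up to 2756 bases, the median was 0.03 for all genes and 0.20 for 7 members. Rab3a, at 1556 bases, lies in the shortest bin, and Cplx1, Vamp2, Napa and Syp in the next. That next bin also holds Snap25 and Bin1, with intervals below equality in hippocampus (log2 -0.25 and -0.26), and Stx1a (0.36). The part of these differences in the members' ratios was not tested.

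For 2 members the interval lay on the same side of equality in both brain regions. Syt1 was above it (log2 0.24, interval 0.09 to 0.39 in cerebellum; 0.18, interval 0.09 to 0.28 in hippocampus), and Syt11 below it (log2 -0.20, interval -0.30 to -0.10 in cerebellum; -0.37, interval -0.45 to -0.28 in hippocampus). Neither reached the 25% limit in cerebellum, where Syt11 had 467 and 538 CPM in KO and WT. Of the 42 measured members 5 had an interval above and 9 below equality in cerebellum, against 604 and 690 of all 8565 measured genes. In hippocampus 9 of 43 members were above and 12 below, against 1068 and 907 of 8599 genes. For 6 members, Syp, Vamp2, Napa, Cplx1, Rab3a and Rph3a, the interval lay on opposite sides in the 2 regions, and the difference between regions was not tested. Intervals on the same or on opposite sides were not counted among all genes. Rph3a, with 478 and 419 CPM in KO and WT cerebellum and 324 and 374 in KO and WT hippocampus (log2 0.19 and -0.21), lies 0.701 Mb from Atxn2 on chromosome 5.

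In liver 21 members averaged at least 10 CPM, and 1 was higher in KO, against 8.56% of all genes, and 2 were lower, against 9.89%. Slc17a7 had 58 and 54 tags in KO and WT, or 60.8 and 34.2 CPM (log2 0.83, interval 0.27 to 1.39). Snap25 had 50.3 and 78.6 CPM (log2 -0.64, interval -1.16 to -0.15) and Cplx2 16.8 and 30.4 CPM (log2 -0.86, interval -1.77 to -0.02) in KO and WT liver. With DESeq2 size factors the counts were 1 and 1. Neuron markers summed to 144 and 169 CPM in KO and WT liver, with 0 of 13 at 0 and 4 of 6 measured lower in KO. Endothelium and blood markers summed to 418 and 217 CPM, with 6 of 6 higher in KO, and the feature Rn28s1/Rn45s had 846 and 3784 tags in KO and WT liver. Genes in the bin lowest in G and C, which holds Snap25 (30.8%), and those with the longest transcripts each had a median log2 ratio of -0.22 in liver. The 6 members with the longest transcripts had a median of 0.39. The part of these differences in the liver ratios was not tested. The members' median was -0.16 and that of all genes -0.03, and the scaling moved the median of all genes in liver by 0.11 upward with DESeq2 size factors and by 0.11 downward with library totals.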

How the data were processed

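RNA of 6 libraries, each a pool of 3 animals, was read by MACE, a 3′ tag method. The deposited tables hold the authors' raw tag counts per feature, not normalized. The submitters' processing notes name CASAVA 1.8.2 and build mm9, whereas the table itself names GRCm38 contigs; no source used here names the aligner. Rows matching no gene stayed out of library sizes (genomic 22.5% to 29.6% of tags, no hit 7.21% to 8.83%, antisense 1.55% to 1.79%), and a row matching several genes went to its 1 named gene where the others were predicted genes or pseudogenes, and otherwise stayed a feature of its own.

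Counts were scaled by TMM and tested with the edgeR 4.0.16 quasi-likelihood test in R 4.3.3 (terms for tissue and genotype, filterByExpr by tissue, Benjamini-Hochberg adjustment over all tested genes), after a test on simulated data. DESeq2 1.42.0, other scalings, filters and treatments of joint rows, and leaving out each library were alternatives. Within a tissue, ratios of scaled tags have exact 95% intervals. Genes with values per library were the 5 highest in brain and in liver, the 6 at each end of the regional difference, the 4 at each end of the KO over WT ratio in each brain region, and those with intervals on one side in both; the other members follow by role, and those with opposite sides were added after their values were seen. The members and lists were chosen with earlier results of these data known. The labels give the same animal numbers in all 3 tissues of a genotype, so the genotype term also stands for the pool in the tissue comparisons. The result of 1 of the other presynaptic genes and that list's genotype results over the brain libraries are not reported here.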

Additional observations from a re-analysis of the deposited data

Results flagged for a closer look

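For 6 members the counting interval of the KO over WT ratio lay on opposite sides of equality in the 2 brain regions, each with 1 library per genotype, so the difference was not tested. The log2 ratio in hippocampus minus that in cerebellum was 0.67 for Napa, 0.57 for Rab3a, 0.44 for Vamp2, 0.35 for Syp, 0.31 for Cplx1 and -0.40 for Rph3a. The first 5 were above equality in hippocampus and below it in cerebellum, and Rph3a the reverse. These 6 were chosen after their values were seen, and such genes were not counted among all genes.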

How the results depend on the processing

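Of 155 alternative counts and medians, 143 stayed within 1.5 times the count or, for medians, within the typical arm of a member's counting interval, and 12 moved. Some of the 143 could not move, since the fold limit does not enter the medians. The 3-tissue genotype fit without liver is also the same fit as that over the brain libraries. The median KO over WT log2 ratio of members turned to -0.002 in cerebellum with DESeq2 size factors (0.013 with TMM), and ran between -0.27 with library totals and -0.04 with DESeq2 size factors in liver. Leaving out 1 library lost 30 times a regional call, for 14 genes named in the results. Members lower in cerebellum than in hippocampus numbered 13 to 26 when 1 library was left out (21 with all), and Slc17a7 without KO cerebellum was -1.41 (adjusted p = 0.112). Within cerebellum, higher members numbered 0 at 2-fold and lower ones 1 with DESeq2 size factors. With DESeq2 size factors Napa was counted as lower in cerebellum, and Napa and Rab3b were no longer counted in hippocampus. Within hippocampus, higher members numbered 1 with DESeq2 size factors and 0 at 1.5-fold and 2-fold, and lower ones 2 at 1.5-fold and 0 at 2-fold. Within liver, higher members numbered 0 at 2-fold, and lower ones 1 with DESeq2 size factors and 0 at 2-fold. For all genes DESeq2 called 784 higher and 1142 lower in cerebellum, where edgeR called 1733 and 2027. For genotype across 3 tissues edgeR called 3 and 23, DESeq2 0 and 2, a filter by genotype 1 and 10, and no filter 25 and 84. Over the brain libraries edgeR called 17 and 89, DESeq2 1 and 12, DESeq2 size factors 7 and 77, library totals 3 and 68, and no filter 25 and 113. Where an alternative moved a count the cause was not tested. The genotype term stands for the pool in the tissue comparisons, and without it 11 members were called higher and 20 lower in cerebellum. No paired analysis was possible because, for genotype, KO and WT pools hold different animals, with 1 library per tissue. In liver 28 of the 49 members averaged under 10 CPM.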
